A study of Mus musculus with 16 samples.

Results

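A set of 8 enzyme genes was followed in mouse gonads with and without a gut microbiota: Idh2, Me3, Txnrd2, Txn2, Prdx3, Gsr, Glrx2 and Sod2. Their products supply NADPH inside mitochondria or serve the removal of peroxide and superoxide. The genes were chosen by symbol from a written list, and all 8 of 8 were found among the 38087 genes of the deposited count table. The transhydrogenase Nnt, another mitochondrial NADPH source, was left out of the list and is given only where it bears on it. Whole testes and whole ovaries were profiled by total RNA sequencing in germ-free mice (GF, raised without microbes) and in conventionally raised mice (CV, with a normal flora). There were 3 GF and 4 CV testis libraries from males and 5 GF and 4 CV ovary libraries from females. Per the labels all were C57BL/6j animals of 15 to 16 weeks, killed at zeitgeber time 2 to 4 h and fed ad libitum, with no transgene, no drug and no diet contrast. The labels do not state that each library is another animal, so p-values measure the spread between libraries, which may be technical. Organ and sex are 1 factor in this design and cannot be told apart.

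Mitochondria make superoxide as a by-product of respiration, and superoxide dismutase 2 turns it into hydrogen peroxide in the matrix. Peroxiredoxin 3 reduces that peroxide and is itself recharged by thioredoxin 2, which thioredoxin reductase 2 recharges with electrons from NADPH. Glutathione reductase and glutaredoxin 2 form the parallel glutathione branch, and isocitrate dehydrogenase 2 and malic enzyme 3 are among the dehydrogenases that make the NADPH both branches spend. In the ovary, steroid-making cells carry a heavy electron flow through mitochondrial cytochromes P450, which also draw on mitochondrial NADPH. In the testis, germ cells take up most of the tissue and spermatids have their own set of thioredoxin family proteins.

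Libraries held 26015487 to 27188919 counts in GF testes, 25880591 to 28266867 in CV testes, 13294039 to 15907297 in GF ovaries and 12912251 to 15141027 in CV ovaries. Levels are in CPM, read counts scaled to library size with TMM factors over all 16 libraries unless said otherwise, and differences are log2 fold changes with standard errors (SE). A gene is called where edgeR's quasi-likelihood test gave an adjusted p under 0.05 (Benjamini-Hochberg over all genes tested, two-sided). Sums of elongating spermatid and oocyte markers matched the organ labels. The 6 elongating spermatid markers summed to 19300 to 20800 CPM in GF testes, 20400 to 21700 CPM in CV testes, 0.147 to 1.92 CPM in GF ovaries and 0.786 to 1.32 CPM in CV ovaries. The 9 oocyte markers summed to 20.7 to 22 CPM in GF testes, 20.2 to 24.4 CPM in CV testes, 128 to 217 CPM in GF ovaries and 129 to 224 CPM in CV ovaries. Variation between libraries beyond counting noise, as edgeR estimates it over all genes, was 4.17% in the testis and 18.5% in the ovary. For Idh2, Txnrd2 and Prdx3, though, the testis contrast of GF and CV had the larger standard error.

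Idh2 and Glrx2 lie at the opposite ends of the difference between the gonads, so the sequences before their start sites are shown. They come from RefSeq promoter windows of build GRCm38.p6 (250 bases before to 50 after a start), which held 7 of the 8 genes. Each is the longest stretch before the start that falls in no annotated exon of the gene, and capitals mark CG dinucleotides. The Idh2 stretch is chr7:80115393-80115600 on the minus strand (208 bases, 14 CG). Glrx2 has 4 annotated start windows on the plus strand. The gene is annotated from 143716338 and the first window begins at 143739099, so all 4 lie within the gene. Windows 1, 2 and 3 overlap one another. Window 1 has no stretch, since all 250 of its bases before the start fall in annotated exons. A stretch of 114 bases with 21 CG, chr1:143739443-143739556, is shared by windows 2 and 3, and one of 178 bases with 4 CG, chr1:143740197-143740374, belongs to window 4.
Idh2: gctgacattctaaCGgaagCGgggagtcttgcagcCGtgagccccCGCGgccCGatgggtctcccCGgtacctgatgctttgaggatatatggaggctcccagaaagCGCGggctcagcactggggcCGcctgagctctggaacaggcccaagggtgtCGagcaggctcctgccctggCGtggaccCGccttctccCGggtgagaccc
Glrx2, windows 2 and 3: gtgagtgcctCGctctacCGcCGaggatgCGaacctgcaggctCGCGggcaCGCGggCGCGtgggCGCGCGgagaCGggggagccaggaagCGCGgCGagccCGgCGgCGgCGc
Glrx2, window 4: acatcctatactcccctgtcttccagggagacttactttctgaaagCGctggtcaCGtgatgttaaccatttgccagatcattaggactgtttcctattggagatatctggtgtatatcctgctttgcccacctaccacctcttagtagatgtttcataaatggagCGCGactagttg
The Idh2 window of 300 bases is 68.3% G or C, and the 4 Glrx2 windows are 46.0%, 69.3%, 70.7% and 44.3%, against a median of 52.7% over 32851 windows of that length. Glrx2 thus has windows rich and poor in G and C within 1 gene. Counts per gene do not say which start, among these or elsewhere in the gene, was used. The letters TGACNNNGC, the core of the antioxidant response element, were searched on both strands with no overlap with another motif considered. They occur in 0 of the 10 windows of the 7 genes and in 12.4% of all windows.

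The question the organ comparison addresses is where each enzyme's RNA is high. Idh2, Prdx3, Txnrd2, Me3 and Gsr were lower in the testis than in the ovary, and Glrx2 was higher, in GF and in CV animals alike. Idh2 RNA was 10.3-fold lower in GF testes than in GF ovaries and 9.75-fold lower in CV testes than in CV ovaries. Glrx2 RNA was 7.38-fold higher in GF testes than in GF ovaries and 7.63-fold higher in CV testes than in CV ovaries. With total count scaling the fitted folds were 17.8 (GF) and 17.0 (CV) for Idh2 and 4.26 (GF) and 4.35 (CV) for Glrx2. Txn2 and Sod2 were called higher in the testis under TMM scaling, but both turned lower under total count scaling. All 8 genes were called in each contrast, against 89.8% of 21977 genes tested between the GF gonads and 90.3% between the CV gonads, so a call by itself says little here. By direction, 3 of 8 were called higher and 5 of 8 lower in both contrasts. Over all genes 46.1% were called higher and 43.7% lower between the GF gonads, and 46.3% and 44% between the CV gonads. With a fold of at least 2 asked as well, 1 of 8 was higher and 4 of 8 were lower, though with RLE scaling Me3 missed that fold between the CV gonads (-0.90) and Gsr passed it in both with total counts (-1.62 GF, -1.71 CV) and with the upper quartile (-1.32 GF, -1.41 CV). The shares over all genes were 36.5% and 33.5% for the GF gonads, and 36.7% and 33.9% for the CV gonads. The testis and ovary ranges did not overlap for any of the 8 genes, which was also so for 86.9% of genes between the GF gonads and 88.1% between the CV gonads. The median log2 fold change of the 8 was -1.0 for GF testis over GF ovary, beside 0.04 over all genes, and -0.98 for CV testis over CV ovary, beside 0.05. In whole organs, fewer cells of a type and less RNA per cell cannot be told apart.

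**Figure D1:**
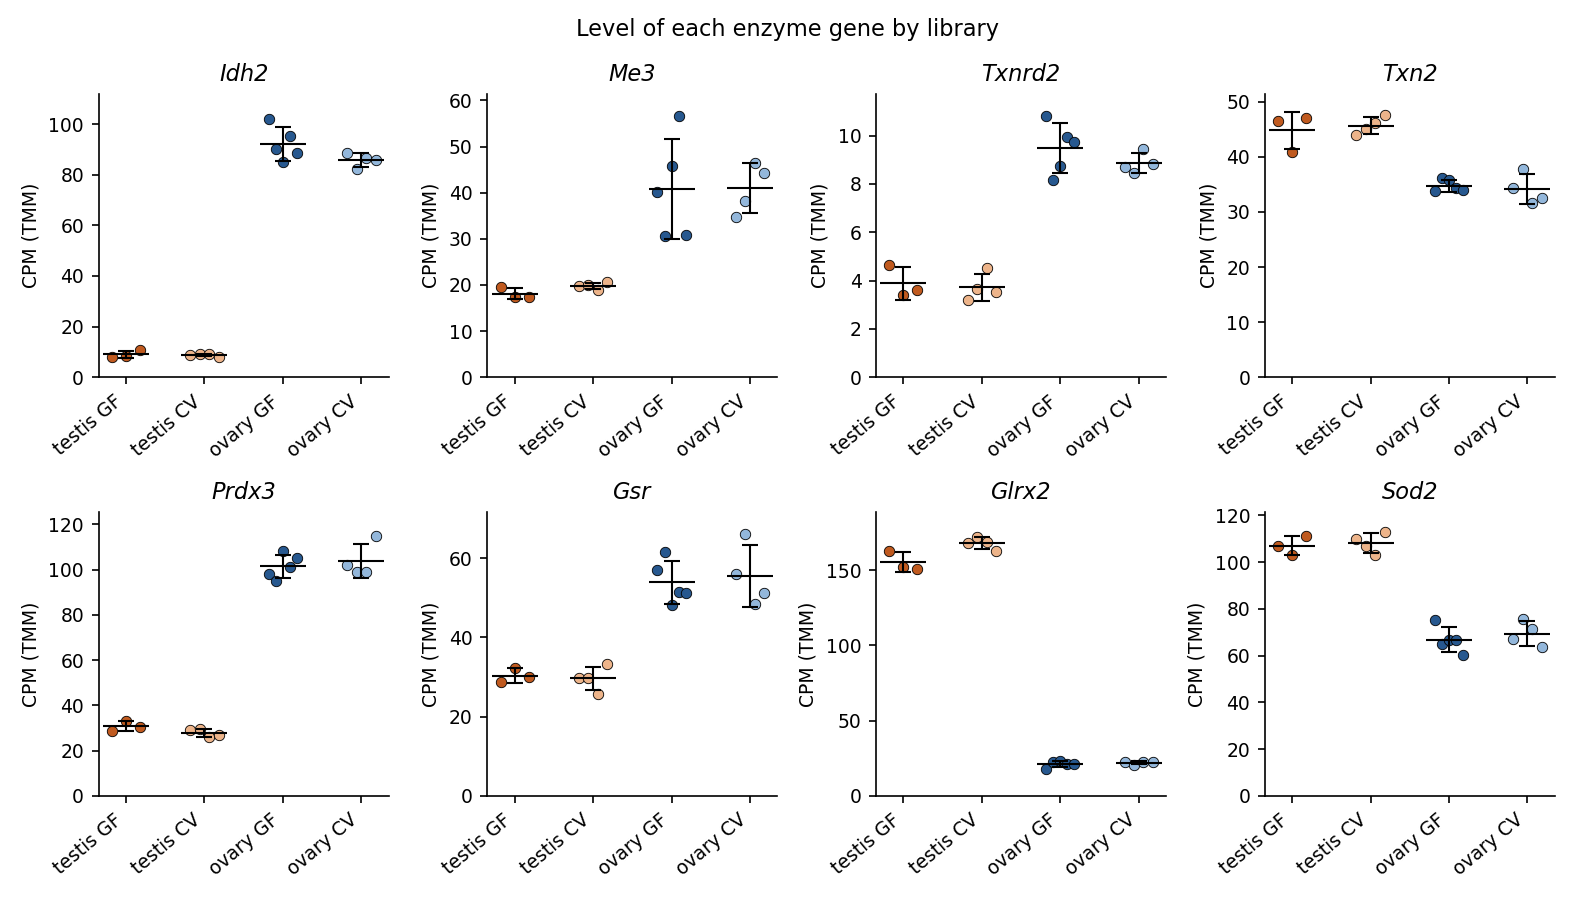
Level of each of the 8 enzyme genes in every library, in CPM with TMM scaling (y axis from 0, a scale of its own per gene), for GF testes, CV testes, GF ovaries and CV ovaries. Points are libraries, the long horizontal line is the group mean and the bar is the SD. Idh2 lies between 8.09 and 10.6 CPM in all testes and between 82.3 and 102 CPM in all ovaries, and Glrx2 between 151 and 172 CPM in testes and between 18.1 and 22.9 CPM in ovaries.

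Among the NADPH sources, Idh2 (ENSMUSG00000030541, GRCm38 chromosome 7, 80094846 to 80115392) encodes the mitochondrial NADP-dependent isocitrate dehydrogenase. Its levels were 8.17, 8.21 and 10.6 CPM in GF testes and 8.64, 9.37, 9.09 and 8.09 CPM in CV testes. In GF ovaries they were 102, 90.3, 84.9, 95.1 and 88.6 CPM, and in CV ovaries 88.7, 82.3, 86.4 and 85.8 CPM. Every ovary was far above every testis, while GF and CV libraries of 1 organ overlapped. The log2 fold change was -3.36 (SE 0.0921, adjusted p = 1.52e-16) for GF testis over GF ovary and -3.28 (SE 0.0834, adjusted p = 5.11e-17) for CV testis over CV ovary. The testis values rest on 155 to 208 counts a library.

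Me3 (ENSMUSG00000030621, chromosome 7, 89632392 to 89854359), the NADP-dependent malic enzyme of mitochondria, makes NADPH while turning malate into pyruvate. It stood at 19.5, 17.5 and 17.4 CPM in GF testes and at 19.7, 20, 19 and 20.6 CPM in CV testes. GF ovaries had 40.1, 30.6, 45.9, 56.6 and 30.9 CPM, and CV ovaries 34.8, 38.3, 46.5 and 44.3 CPM. The testes were tightly grouped and the ovaries were not, with the highest and the lowest ovary both germ-free. Me3 had a log2 fold change of -1.17 (SE 0.17, adjusted p = 5.78e-06) between the GF gonads and -1.05 (SE 0.159, adjusted p = 9.54e-06) between the CV gonads. An antisense gene, A230065N10Rik, overlaps 3.89% of the Me3 exon length, and it had 459 counts over all 16 libraries. The sources used here do not say whether counting used strand.

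In the thioredoxin branch, Txnrd2 (ENSMUSG00000075704, chromosome 16, 18426384 to 18479073), the selenoprotein that hands electrons from NADPH to thioredoxin 2, was the lowest gene of the set. It stood at 4.64, 3.39 and 3.61 CPM in GF testes and at 3.18, 3.66, 4.52 and 3.51 CPM in CV testes. In GF ovaries it stood at 10.8, 8.16, 8.74, 9.93 and 9.72 CPM, and in CV ovaries at 8.7, 8.47, 9.46 and 8.81 CPM. All ovaries were above all testes. The log2 fold change was -1.29 (SE 0.144, adjusted p = 1.29e-07) between the GF gonads and -1.25 (SE 0.136, adjusted p = 8.95e-08) between the CV gonads. Its testis values rest on 60 to 89 counts a library.

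Txn2 (ENSMUSG00000005354, chromosome 15, 77915047 to 77929006), mitochondrial thioredoxin, had the smallest difference between the organs under TMM scaling. It stood at 46.5, 40.9 and 47 CPM in GF testes and at 43.9, 45, 46.1 and 47.5 CPM in CV testes. GF ovaries held 33.7, 36.1, 35.7, 34.4 and 33.9 CPM, and CV ovaries 34.4, 37.8, 31.7 and 32.6 CPM. The testes were above the ovaries on this scale. The log2 fold change was 0.37 (SE 0.0653, adjusted p = 4.4e-05) between the GF gonads and 0.42 (SE 0.064, adjusted p = 7.3e-06) between the CV gonads, but -0.42 and -0.39 under total count scaling and -0.12 and -0.09 under upper quartile scaling.

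Prdx3 (ENSMUSG00000024997, chromosome 19, 60864051 to 60874556), the peroxiredoxin that thioredoxin 2 recharges, stood at 28.7, 33.1 and 30.2 CPM in GF testes and at 28.9, 29.6, 26 and 26.8 CPM in CV testes. In GF ovaries it stood at 97.8, 95.1, 108, 101 and 105 CPM, and in CV ovaries at 102, 99.1, 99.1 and 115 CPM. The lowest ovary was above the highest testis. Prdx3 had a log2 fold change of -1.72 (SE 0.0712, adjusted p = 6.77e-14) between the GF gonads and -1.90 (SE 0.0666, adjusted p = 5.77e-15) between the CV gonads. Ratios of counts within 1 library do not depend on scaling, though their size also reflects gene length. The Txn2 to Prdx3 ratio of counts was 1.47 ± 0.205 in GF testes, 1.65 ± 0.148 in CV testes, 0.344 ± 0.0215 in GF ovaries and 0.331 ± 0.0405 in CV ovaries (SD, n = 3, 4, 5 and 4). The Txn2 to Txnrd2 ratio was 11.7 ± 1.53 in GF testes, 12.5 ± 1.65 in CV testes, 3.71 ± 0.533 in GF ovaries and 3.87 ± 0.471 in CV ovaries.

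In the glutathione branch, Gsr (ENSMUSG00000031584, chromosome 8, 33652523 to 33698163) encodes glutathione reductase, which serves the cytosol as well as mitochondria. It stood at 28.7, 32.3 and 30 CPM in GF testes and at 29.8, 29.6, 25.8 and 33.2 CPM in CV testes. In GF ovaries it stood at 56.9, 61.5, 48.1, 51.4 and 51.3 CPM, and in CV ovaries at 56, 66.2, 48.5 and 51.1 CPM. The ovaries were higher throughout. For Gsr the log2 fold change was -0.83 (SE 0.106, adjusted p = 7.82e-07) between the GF gonads and -0.91 (SE 0.1, adjusted p = 1.18e-07) between the CV gonads.

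Glrx2 (ENSMUSG00000018196, chromosome 1, 143716338 to 143749676), glutaredoxin 2, removes glutathione from protein thiols, and its gene is known to give forms outside mitochondria as well. It stood at 163, 152 and 151 CPM in GF testes and at 168, 172, 169 and 163 CPM in CV testes. GF ovaries were at 18.1, 22.6, 22.9, 20.8 and 20.8 CPM, and CV ovaries at 22.3, 20.3, 22.7 and 22.6 CPM. It was the gene with the highest CPM of the 8 in every testis and the second lowest in every ovary. Its log2 fold change was 2.88 (SE 0.0649, adjusted p = 8.16e-18) between the GF gonads and 2.93 (SE 0.0675, adjusted p = 1.26e-17) between the CV gonads. The Glrx2 to Idh2 ratio of counts was 17.6 ± 2.95 in GF testes, 19.1 ± 0.827 in CV testes, 0.23 ± 0.0352 in GF ovaries and 0.256 ± 0.00845 in CV ovaries. Counts per gene do not separate the mitochondrial form from the others.

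Sod2 (ENSMUSG00000006818, chromosome 17, 13006846 to 13040063), the manganese superoxide dismutase of the matrix and the step that makes the peroxide, stood at 107, 103 and 111 CPM in GF testes and at 110, 107, 103 and 113 CPM in CV testes. In GF ovaries it stood at 75.2, 65, 66.8, 66.7 and 60.3 CPM, and in CV ovaries at 67, 75.5, 71.5 and 63.7 CPM. The testes were above the ovaries on the TMM scale. The log2 fold change was 0.68 (SE 0.0662, adjusted p = 2.05e-08) between the GF gonads and 0.64 (SE 0.0653, adjusted p = 3.65e-08) between the CV gonads, but -0.11 (adjusted p = 0.127) and -0.17 (adjusted p = 0.0228) under total count scaling. Set against the peroxidase within each library, the Sod2 to Prdx3 ratio of counts was 3.51 ± 0.336 in GF testes, 3.90 ± 0.262 in CV testes, 0.662 ± 0.0725 in GF ovaries and 0.674 ± 0.0898 in CV ovaries.

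The scaling of libraries moved the centre of the organ comparison. The median log2 fold change of all genes was 0.04 for the GF gonads and 0.05 for the CV gonads with TMM. It was -0.75 and -0.76 with total counts, -0.45 and -0.46 with the upper quartile, and 0.19 and 0.20 with median ratios (RLE). Of all calls, 51.3% were higher in the testis with TMM in both contrasts, against 38.8% (GF) and 38.6% (CV) with total counts. Relative to the median gene, Txn2 was higher by 0.33 in GF and 0.37 in CV testes under all 4 scalings, and Sod2 by 0.64 and 0.59. A scaling moves every gene and the median by about the same amount, so this agreement is arithmetic and not a check of direction. Idh2, Me3, Txnrd2, Prdx3 and Gsr stayed lower, and Glrx2 higher, under all 4 scalings on the unshifted scale too. Summed over the 8 genes, levels were 399 ± 7.83 CPM in GF testes, 412 ± 6.43 CPM in CV testes, 420 ± 15.6 CPM in GF ovaries and 420 ± 6.65 CPM in CV ovaries. With total counts the sums were 295 ± 2.04 CPM in GF testes, 299 ± 5.01 CPM in CV testes, 537 ± 21.3 CPM in GF ovaries and 535 ± 5.53 CPM in CV ovaries, so whether the organs match in the total cannot be read from these libraries.

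**Figure D2:**
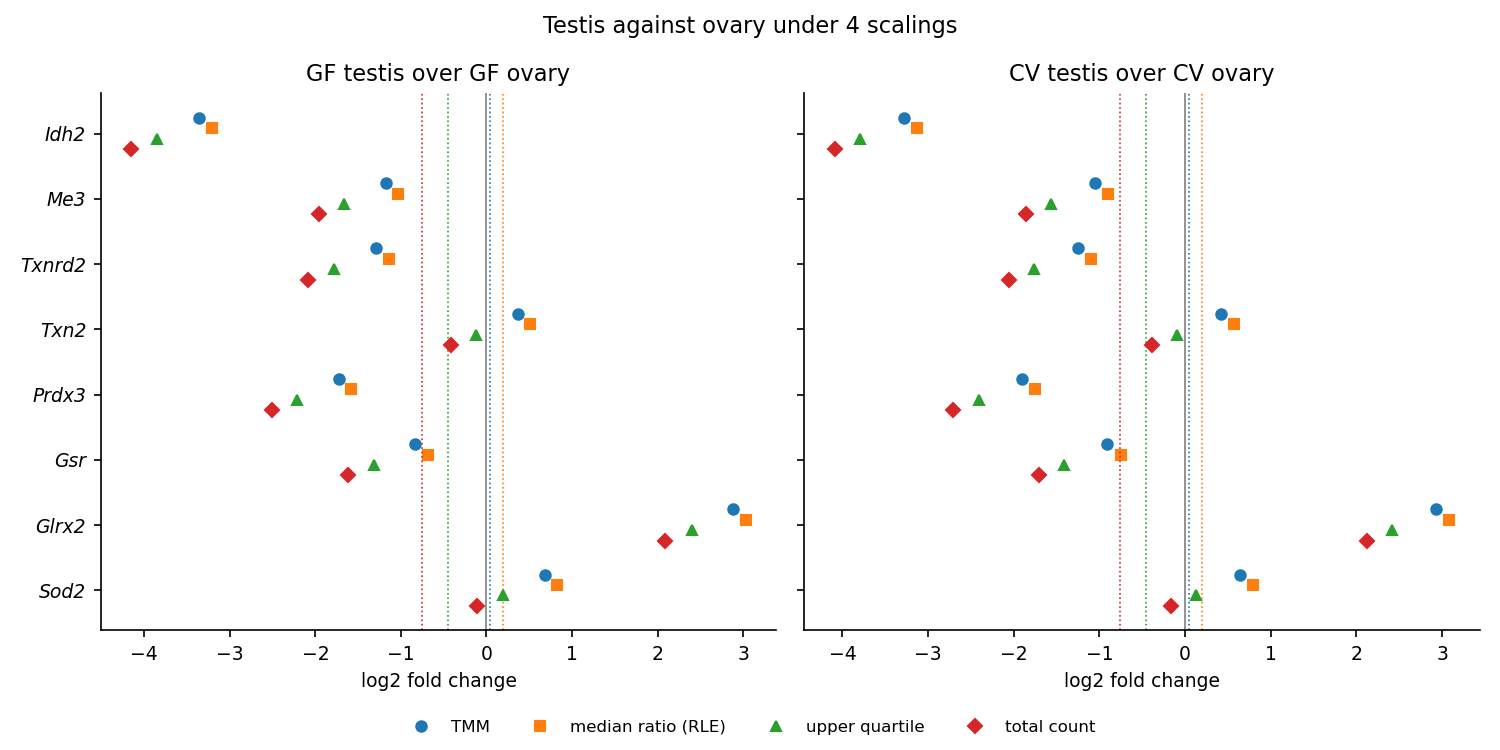
Log2 fold change of each gene, GF testis over GF ovary (left) and CV testis over CV ovary (right), under 4 scalings marked by symbol. Dotted lines in the same colours are the median of all genes under each scaling. All symbols of a gene move together with the median: Idh2 stays lowest and Glrx2 highest, while Txn2 (0.37 in GF with TMM, -0.42 with total counts) and Sod2 (0.68 and -0.11) cross 0.

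To compare genes with each other, CPM was divided by the length of all annotated exons in kilobases (FPKM). In testes, Prdx3 at 20.7 ± 1.5 FPKM (GF) and 18.8 ± 1.17 FPKM (CV) and Glrx2 at 17.7 ± 0.765 FPKM (GF) and 19.1 ± 0.413 FPKM (CV) led the set. Prdx3 was ahead in every GF testis (19.4 to 22.4 FPKM, against 17.2 to 18.6 FPKM for Glrx2), while the ranges overlapped in CV testes. Gsr, Sod2 and Txn2 followed at 10.6 to 11 FPKM in GF and 10.7 to 10.8 FPKM in CV testes, with ranges that overlapped. Per longest principal transcript the order was another: Glrx2 led with 46.5 FPKM in GF and 50.3 FPKM in CV testes, then Txn2 with 21.9 and 22.3, Prdx3 with 20.7 and 18.8, Sod2 with 18.3 and 18.5 and Gsr with 11.4 and 11.1 FPKM. With all exons counted, Idh2, at 3.47 ± 0.533 FPKM in GF and 3.40 ± 0.216 FPKM in CV testes, Me3 and Txnrd2 closed the order. In ovaries Prdx3 led at 68.5 ± 3.45 FPKM (GF) and 70.2 ± 5.05 FPKM (CV), followed by Idh2 at 35.6 ± 2.54 FPKM (GF) and 33.1 ± 1.02 FPKM (CV) and Gsr at 19.6 ± 1.93 FPKM (GF) and 20.1 ± 2.84 FPKM (CV). Txn2 followed at 8.26 ± 0.264 FPKM (GF) and 8.11 ± 0.645 FPKM (CV) and Sod2 at 6.67 ± 0.538 FPKM (GF) and 6.94 ± 0.514 FPKM (CV), with ranges that overlapped in CV ovaries only. Me3 and Glrx2 overlapped near the bottom at 2.79 ± 0.747 and 2.4 ± 0.221 FPKM in GF ovaries and 2.80 ± 0.37 and 2.51 ± 0.131 FPKM in CV ovaries. Per longest principal transcript the order of means in ovaries was the same, but some overlaps were not. In CV ovaries Txn2 and Sod2 were then apart (15.5 to 18.5 against 10.9 to 12.9 FPKM). Me3 and Glrx2 were apart there too (7.75 to 10.4 against 6.07 to 6.8 FPKM) but still overlapped in GF ovaries.

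As a share of the summed FPKM of the 8 genes, which needs no scaling between libraries, Prdx3 and Idh2 made up most of the ovary set and much less of the testis set. Prdx3 held 27.1% ± 1.84 in GF testes, 24.8% ± 1.13 in CV testes, 46.9% ± 2.44 in GF ovaries and 48.1% ± 2.34 in CV ovaries. Idh2 held 4.54% ± 0.67 in GF testes, 4.48% ± 0.319 in CV testes, 24.4% ± 1.48 in GF ovaries and 22.7% ± 1.06 in CV ovaries. Glrx2 held 23.2% ± 1.19 in GF testes, 25.2% ± 0.834 in CV testes, 1.64% ± 0.17 in GF ovaries and 1.72% ± 0.108 in CV ovaries. Gsr held 14.4% ± 0.807 in GF testes, 14.1% ± 1.21 in CV testes, 13.4% ± 1.40 in GF ovaries and 13.8% ± 1.91 in CV ovaries (SD, n = 3, 4, 5 and 4 throughout). The Gsr ranges of all 4 groups overlapped with this length, but per longest principal transcript its share was lower in every testis (8.24% to 9.5% GF, 7.5% to 9.38% CV) than in any ovary (9.55% to 12.5% GF, 9.92% to 13.2% CV). The choice of length moved 27 of the 32 shares by more than 1 SD: with the transcript length, Glrx2 held 36.0% ± 1.33 of the set in GF testes and 38.2% ± 0.968 in CV testes and led it there, and Prdx3 still led in ovaries with 36.4% ± 2.07 in GF and 37.4% ± 2.02 in CV.

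**Figure D3:**
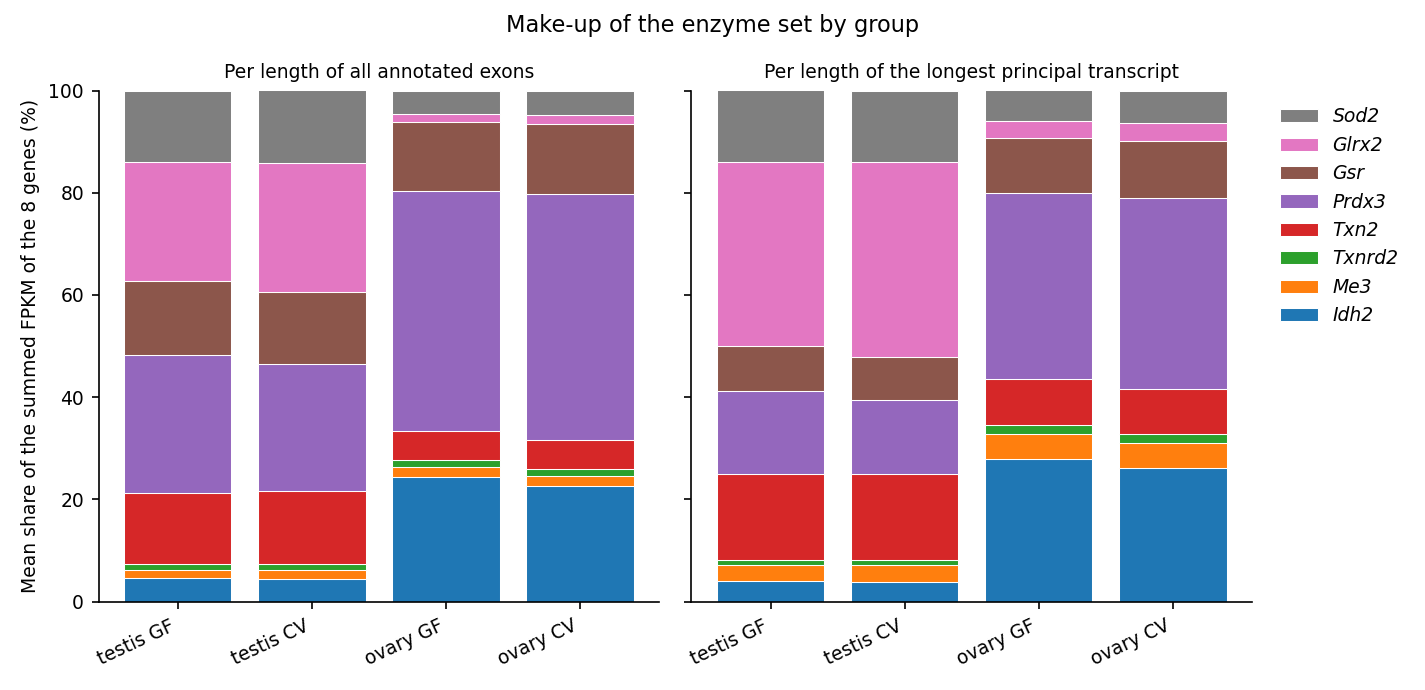
Mean share (%) of each gene in the summed FPKM of the 8 genes, in GF testes, CV testes, GF ovaries and CV ovaries, with CPM divided by the length of all annotated exons (left) or of the longest principal transcript (right). GF and CV bars of 1 organ look alike, while Glrx2 goes with the testis (23.2% of GF and 25.2% of CV testes on the left) and Idh2 with the ovary (24.4% of GF and 22.7% of CV ovaries).

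Other genes of the system were grouped in 7 written lists, and each is given as counts of called members, GF gonads and then CV gonads. Of 10 mitochondrial partner enzymes tested, 3 were called higher and 4 lower in GF testes, and 5 and 5 in CV testes, but 2 and 6, and 2 and 5, with total counts. Gpx4, the lipid peroxidase that also builds the sperm midpiece, averaged 874 ± 18.4 CPM in GF testes, 896 ± 12.3 CPM in CV testes, 64.2 ± 6.37 CPM in GF ovaries and 63.7 ± 8.84 CPM in CV ovaries (log2 3.77 and 3.81). Mthfd2, a folate enzyme of mitochondria, was higher by 1.39 in GF and 1.40 in CV testes. Gpx1, a glutathione peroxidase, was lower with log2 -2.71 in GF and -2.91 in CV testes, and Me2, the NAD-dependent malic enzyme, with -2.33 and -2.28. Of 18 cytosolic counterparts, 3 were called higher and 13 lower in GF testes, and 5 and 12 in CV testes, and 2 and 16 in both with total counts. G6pdx, the entry of the pentose phosphate pathway, was lower with log2 -3.13 in GF and -3.39 in CV testes. Txn1, cytosolic thioredoxin, was lower with -2.82 in GF testes and Idh1, the cytosolic isocitrate dehydrogenase, with -2.80 in CV testes. Glrx3, another glutaredoxin family member, was higher with 2.78 in GF and 2.80 in CV testes. The retrogene G6pd2 had 2673 counts in the 3 GF testes, 3620 in the 4 CV testes, 18 in the 5 GF ovaries and 10 in the 4 CV ovaries.

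Of the 6 genes listed as spermatid thioredoxin family, 5 were called higher and 1 lower in both contrasts under all 4 scalings. The list was written for spermatids, so high levels in testes are not a result of their own. Txnrd3, a reductase that joins thioredoxin and glutathione activities, averaged 801 ± 21.5 CPM in GF testes, 788 ± 15.1 CPM in CV testes, 16.1 ± 1.41 CPM in GF ovaries and 15.1 ± 1.99 CPM in CV ovaries. Nme8 had 16542 counts in GF testes, 21949 in CV testes, 2 in GF ovaries and 0 in CV ovaries. Txndc8 had 8555, 11726, 2 and 0 counts in the same order, and Prdx6b 31887, 43968, 2 and 3. Txndc11 was the 1 called lower, with log2 -1.26 in GF and -1.44 in CV testes. It averaged 23.8 CPM in GF testes, 20.7 CPM in CV testes, 56.9 CPM in GF ovaries and 56 CPM in CV ovaries, against the name of its list. Of 5 secretory and extracellular peroxide enzymes, 1 was called higher and 4 lower in each contrast. Prdx4, the peroxiredoxin of the endoplasmic reticulum, was higher with 2.15 in GF and 2.33 in CV testes. Gpx7 was lower with -4.89 in GF and -4.41 in CV testes, Gpx8 with -3.95 in GF testes and Gpx3, the plasma glutathione peroxidase, with -4.94 in CV testes. How reads were split between retrogenes such as Prdx6b or G6pd2 and their parent genes was not tested.

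Of 12 companions in the tricarboxylic acid cycle, 4 were called higher and 7 lower in GF testes, and 3 and 7 in CV testes, and 1 and 11 in both with total counts. The X-linked Pdha1, a subunit of pyruvate dehydrogenase, was lower with log2 -3.50 in GF and -3.66 in CV testes, while its retrogene Pdha2 had 17443 counts in GF testes, 24627 in CV testes, 2 in GF ovaries and 3 in CV ovaries. Idh3g, a subunit of the NAD-dependent isocitrate dehydrogenase, was lower with -2.28 in GF and -2.42 in CV testes. Ogdh in GF (0.34) and Idh3b in CV testes (0.28) were called higher with TMM and lower with total counts (-0.45 and -0.53). Of 19 genes of mitochondrial content, 12 were called higher and 6 lower in GF testes, and 11 and 6 in CV testes, but 7 and 11 in both with total counts. Hspd1, the matrix chaperonin, was lower with -2.77 in GF and -2.52 in CV testes, and Vdac1, the outer membrane channel, with -2.21 and -2.30. The germ cell adenine nucleotide carrier Slc25a31 was higher with 6.93 in GF and 6.00 in CV testes. Testis cytochrome c (Cyct) had 4655 counts in GF testes, 6324 in CV testes, 4 in GF ovaries and 5 in CV ovaries. Of 13 targets and regulators of NRF2, the transcription factor of the antioxidant response, 3 were called higher and 8 lower in GF testes, and 4 and 8 in CV testes, and 1 and 10 in both with total counts. Nfe2l2, which encodes NRF2, was lower with -2.17 in GF and -1.99 in CV testes, and Osgin1 was higher with 3.73 and 3.68. Keap1, the NRF2 repressor, was higher with 0.72 in GF testes and Srxn1, the sulfiredoxin, with 0.83 in CV testes. Under total count scaling neither was called (Keap1 -0.07, Srxn1 0.03).

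Some cell marker lists moved with the organ and others were mixed, and their part in these differences was not tested. All 6 spermatocyte, 6 of 6 round spermatid and 6 of 6 elongating spermatid markers were called higher in both testis groups. Round spermatid markers summed to 1210 to 1220 CPM in GF testes, 1240 to 1370 CPM in CV testes, 0.577 to 0.932 CPM in GF ovaries and 0.829 to 1.12 CPM in CV ovaries, with Sun5 at 0 in all ovaries. Corpus luteum markers, the steroid-making cells left after ovulation, summed to 532 to 546 CPM in GF testes, 449 to 598 CPM in CV testes, 5800 to 10800 CPM in GF ovaries and 6360 to 8570 CPM in CV ovaries. Of these 10 markers, 10 were called lower in GF and 9 in CV testes. Of 6 spermatogonia markers, 3 were called higher and 2 lower in GF testes, and 3 and 3 in CV testes. Of 8 Sertoli markers it was 4 and 3 in both. Leydig markers summed to 1280 to 1320 CPM in GF and 1030 to 1400 CPM in CV testes. Their sums were higher in ovaries, 2230 to 4180 CPM (GF) and 2500 to 3430 CPM (CV). The list shares Cyp11a1, Star and Lhcgr with the corpus luteum list, and Cyp17a1 and Insl3 with the theca list. By call, 3 of 7 were higher and 3 lower in GF testes, and 3 and 2 in CV testes. Of 9 oocyte markers, 1 was called higher and 8 lower in both contrasts.

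The second question is whether animals without microbes differ in these RNAs. In the testis, none of the 8 genes was called between GF and CV animals, while 8.08% of 20269 genes tested were called. Another 2 fits bear on that share: a joint fit of all 16 libraries called 122 genes (0.555% of 21977) in place of 1638, and leaving out GF testis replicate 2 gave 996. The joint fit estimates each gene's spread over both organs together, and the ovaries varied more. The testis SE of Glrx2 was 0.0662 in it, against 0.0344 in the testis fit. Among the 8 genes only Idh2 (0.0935 against 0.108) and Txnrd2 (0.151 against 0.16) had a smaller SE in the joint fit. It also called 0 of the 8. Unadjusted p-values under 0.05 were reached by 2 of the 8 and by 19.4% of all genes tested. Glrx2 averaged 155 ± 6.71 CPM in GF testes and 168 ± 3.63 CPM in CV testes (SD, n = 3 and 4), a log2 fold change of -0.09 (SE 0.0344, unadjusted p = 0.00987, adjusted p = 0.094, edgeR). The highest GF library, at 163 CPM, met the lowest CV library, at 163 CPM. Prdx3 averaged 30.7 ± 2.21 CPM in GF testes and 27.8 ± 1.72 CPM in CV testes, a log2 fold change of 0.16 (SE 0.0645, unadjusted p = 0.0183, adjusted p = 0.141, edgeR). The remaining 6 had adjusted p-values from 0.432 to 1, the log2 fold changes ran from -0.11 for Me3 to 0.07 for Txnrd2, and GF and CV ranges overlapped for all 8. Non-overlapping ranges were found for 17.4% of genes in this comparison. DESeq2 and limma-voom also called 0 of the 8.

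The Glrx2 call depended on single libraries. Without CV testis replicate 4 it was called at -0.11 (SE 0.0335, adjusted p = 0.0201), and without GF testis replicate 1 at -0.13 (SE 0.0381, adjusted p = 0.0325). The other leave-out fits kept it uncalled. The 7 epididymis markers summed to 51.1 CPM in GF testis replicate 1, to 8.3 and 6.46 CPM in the other GF testes and to 6.25 to 7.58 CPM in CV testes. Round spermatid markers moved in the same direction as Glrx2, with 4 of 6 called lower in GF testes and sums of 1210 to 1220 CPM in GF against 1240 to 1370 CPM in CV testes. Of elongating spermatid markers 1 of 6 was called lower, and of spermatocyte markers 2 of 6 were called higher. Over all genes in the same testis fit, 4.41% were called lower and 3.67% higher. Joint fit results for these markers are not given here. The part of the marked cells in the Glrx2 values was not tested.

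In the ovary, none of the 8 genes was called, and 0 of 8 had an unadjusted p under 0.05 by edgeR (6.48% of all genes did), where 0.177% of 18095 genes tested were called. With libraries paired by replicate number, 91 genes were called, and 0 of the 8. That fit leaves out GF ovary replicate 5, which has no partner. The same libraries without pairing gave 33 called genes, and the main fit gave 32. DESeq2, with 95 genes called, and limma-voom, with 28, also called 0 of the 8. Adjusted p-values ran from 0.81 for Idh2 to 0.996 for Me3. Idh2 averaged 92.2 ± 6.57 CPM in GF ovaries and 85.8 ± 2.65 CPM in CV ovaries (SD, n = 5 and 4), a log2 fold change of 0.10 (SE 0.0592). Txnrd2 averaged 9.48 ± 1.05 CPM in GF and 8.86 ± 0.426 CPM in CV ovaries, also 0.10 (SE 0.106). The other 6 lay between -0.06 and 0.02, and GF and CV ranges overlapped for all 8, while 2.76% of genes had ranges that did not overlap. The median log2 fold change of the 8 was 0.02 in the testis, beside 0.00 over all genes, and -0.02 in the ovary, beside 0.01.

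Intervals give the range of differences these libraries allow. For Sod2 the 95% interval of the GF to CV ratio was 0.933 to 1.07 in the testis and 0.853 to 1.08 in the ovary. For Idh2 it was 0.854 to 1.25 in the testis and 0.975 to 1.18 in the ovary. The widest was that of Me3 in the ovary, 0.735 to 1.35, followed by Txnrd2 in the testis, 0.792 to 1.40. For Glrx2 in the testis it was 0.881 to 0.996, before any adjustment for the number of genes.

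**Figure D4:**
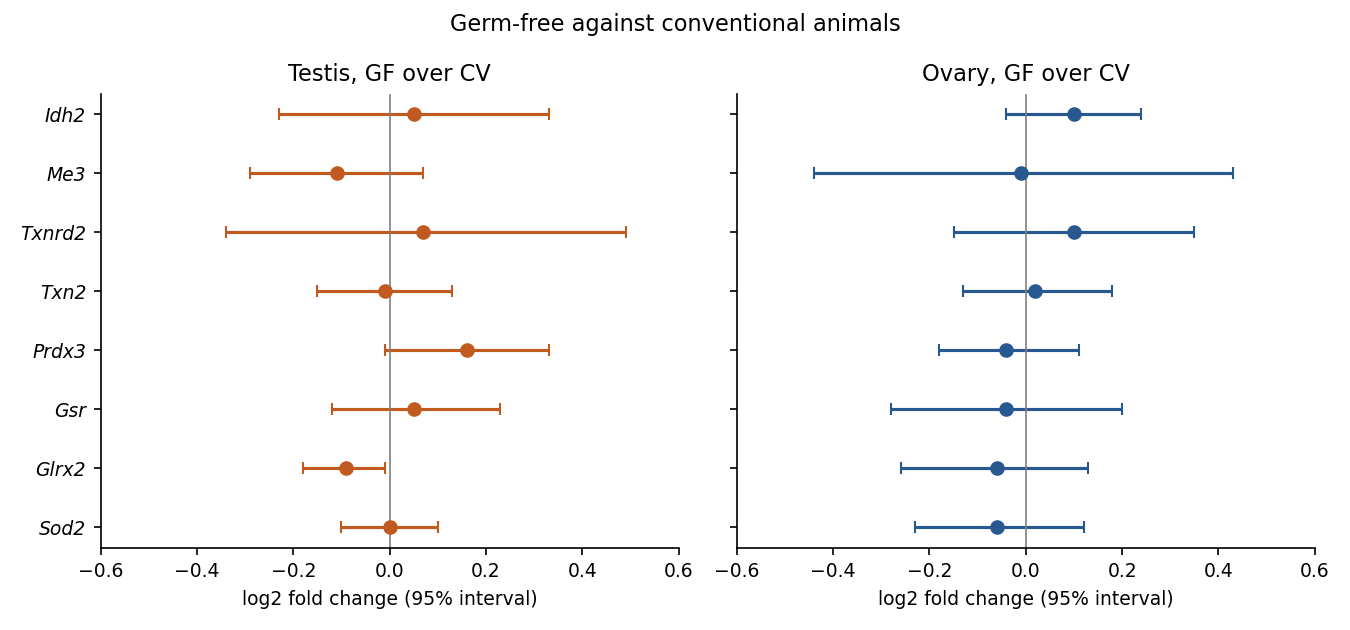
Log2 fold change of each gene, GF over CV, in testes (left, 3 against 4 libraries) and ovaries (right, 5 against 4 libraries). Points are edgeR estimates and bars are 95% intervals from their standard errors and the residual degrees of freedom, not adjusted for the number of genes. All intervals include 0 except that of Glrx2 in the testis (-0.18 to -0.01), whose adjusted p was 0.094. The edgeR test also draws on the spread of other genes, so intervals and p-values can differ. Prdx3 in the testis has an interval of -0.01 to 0.33 and an unadjusted p of 0.0183 by edgeR.

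The difference between the organs in the response to germ-free life was tested as an interaction over all 16 libraries. None of the 8 genes was called, none had an unadjusted p under 0.05 (6.93% of all genes did), and adjusted p-values ran from 0.749 for Prdx3 to 1 for Txnrd2. Over all genes 0.132% of 21977 were called. The Prdx3 estimate, the testis value of GF over CV minus the ovary value, was 0.17 (SE 0.0934).

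Nnt, the transhydrogenase that makes mitochondrial NADPH with electrons from NADH and that carries a known deletion in the C57BL/6J substrain, was called higher in GF animals in both organs. The labels give all animals as C57BL/6j and say nothing of where the GF and CV colonies came from, so a difference between colonies or substrains and the absence of microbes cannot be told apart in any GF against CV value. It averaged 137 ± 4.70 CPM in GF testes and 107 ± 3.38 CPM in CV testes, and 124 ± 15.5 CPM in GF ovaries and 58.2 ± 1.97 CPM in CV ovaries. The Nnt to Idh2 ratio of counts was 15.4 ± 1.90 in GF testes and 12.2 ± 1.13 in CV testes, and 1.35 ± 0.159 in GF ovaries and 0.679 ± 0.0352 in CV ovaries. The Nnt log2 fold change was 0.38 in the testis (SE 0.0363, adjusted p = 4.29e-10) and 1.09 in the ovary (SE 0.087, adjusted p = 0.000391), with an interaction of -0.73 (SE 0.107, adjusted p = 0.00527). No other gene of the 7 lists was called in the ovary or in the interaction. Next by p in the ovary came Gpx3, with log2 -0.62 (SE 0.235, adjusted p = 0.719). In the testis Srxn1 was called lower with -0.18 (SE 0.0578, adjusted p = 0.0413). Fh1, the fumarase, was called higher with 0.37 (SE 0.0597, adjusted p = 3.25e-05). Of the 19 genes of mitochondrial content 4 were called higher and 0 lower in GF testes: Uqcrc2 and Uqcrc1 of respiratory complex III with 0.20 and 0.09, Cox4i1 of complex IV with 0.14, and Tfam, the mitochondrial DNA packaging factor, with 0.12. Over all genes 3.67% were called higher and 4.41% lower. In the joint fit none of these 4 was called (adjusted p from 0.403 to 1), nor was Srxn1 (1), while Fh1 (0.0258) and Nnt (0.0462) were. That fit takes each gene's spread over both organs, and the SE of these 4 and of Srxn1 was larger in it (Uqcrc2 0.0611 against 0.0379). The lists of cytosolic counterparts (18 tested), secretory enzymes (5 tested) and spermatid thioredoxins (6 tested) had 0 called in GF testes.

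Within groups the 8 genes did not move as 1 block. Over the 16 libraries, with each value taken less its group mean, the 28 pairs had a median Pearson r of -0.04, and 11 were positive. The highest were Gsr with Sod2 (0.43), Txn2 with Gsr (0.41) and Txn2 with Sod2 (0.33), and the lowest Sod2 with Glrx2 (-0.60), Prdx3 with Txn2 (-0.50) and Txnrd2 with Gsr (-0.48). These values share libraries and depth and are given as a description.

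Me3 had the widest spread of the 8 in GF ovaries, with a coefficient of variation of 26.8%, and 13.2% in CV ovaries, where Gsr had 14.1%. In testes Me3 had 6.51% (GF) and 3.31% (CV). GF ovary replicate 4, with the highest Me3 at 56.6 CPM, also had the highest summed theca markers, 3200 CPM. Its granulosa and spermatogonia marker sums, 2140 and 119 CPM, were the highest of all ovaries too, so the rank was not particular to theca. The theca sums of the other GF ovaries, replicates 1, 2, 3 and 5, were 1440, 1650, 2390 and 1150 CPM, beside Me3 levels of 40.1, 30.6, 45.9 and 30.9 CPM. In CV ovaries 1 to 4 the sums were 1430, 1950, 1970 and 2120 CPM, beside Me3 levels of 34.8, 38.3, 46.5 and 44.3 CPM. Granulosa sums were 1310, 1060, 1720 and 1130 CPM in GF ovaries 1, 2, 3 and 5. In CV ovaries 1 to 4 they were 1170, 1520, 1640 and 1890 CPM. The part of theca cells, the androgen-making layer of the follicle, or of granulosa cells in the Me3 values was not tested. The genes most like Me3 within groups, among 13191 compared over 16 libraries, were Crhr1 and Slc25a28, both with r of 0.94. The closest to Idh2 were Ube2d1 (0.80) and Oma1 (0.79), to Txnrd2 Wdr11 (0.85) and Gxylt1 (0.77), and to Txn2 Bcar1 and Naa50 (both 0.88). The closest to Prdx3 were Slc26a11 (0.83) and Otof (0.80), to Gsr Id4 (0.86) and Eftud2 (0.85), to Glrx2 Bmp6 (0.80) and Krt23 (0.78), and to Sod2 Opa1 and Thyn1 (both 0.86). All were picked as the highest r among 13191 genes in these same libraries. Picking of this kind gives high values by itself, so they are a description and were not tested.

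Ovaries also differ in luteal content, and no label gives the cycle stage. Across the 9 ovaries no relation between a gene's level and the mean level of the 10 corpus luteum markers passed the test (mean of log2 of CPM plus 1). Pearson's r ran from -0.33 for Txnrd2 (exact permutation p = 0.384) to 0.35 for Gsr (exact permutation p = 0.349), and all 8 adjusted p-values lay between 0.969 and 0.985. Spearman's rho ran from -0.40 for Txnrd2 to 0.38 for Gsr, with adjusted exact permutation p-values of 0.658 to 0.948. Without GF ovaries 4 and 5, the libraries farthest from the median, r ran from -0.60 for Me3 to 0.59 for Idh2.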

How the data were processed

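Total RNA of 16 testis and ovary libraries was measured, 3 to 5 in each of 4 groups set by the labels. Per the labels' protocols, libraries were stranded, depleted of ribosomal RNA and read from both ends. What the authors deposited is raw counts of reads over exons, whole numbers in 1 table with a row per gene. The submitters' processing notes name STAR 2.4.0i and mm10. Counting tool, annotation and strand setting: not given in the sources used here.

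From the deposited counts, edgeR 4.0.16 in R 4.3.3 (TMM scaling, filterByExpr, robust quasi-likelihood F test) gave all tests. Each organ had its own fit for GF over CV, and 1 fit of all 16 libraries served the interaction and the organ contrasts. P-values were adjusted over all genes tested. CPM used the scaling factors of all 16 libraries, and FPKM the union exon length in GENCODE M21 (36308 of 38087 genes had a position by identifier). Intervals (95%) used SE and residual degrees of freedom. The tests were tried on simulated data.

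No replicate pair agreed within sampling noise (chi-square per degree of freedom 2.37 to 34.3), so each library counts once. Same-numbered GF and CV ovaries deviated together (r = 0.42, 0.24, 0.23 and 0.41), so an alternative fit paired the 4 ovaries that have a partner by replicate number. The main ovary test used no pairing. The pairing was read from the same data that the paired fit used, so the calls it gained are not independent of that choice. No label states a pairing, and some libraries of different numbers correlated as much (GF 5 with CV 2, r = 0.41, GF 4 with CV 3, 0.29). Testes did not pair (r = -0.03, 0.06 and -0.02).

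Named genes were the 8, and from 7 pathway lists those called between GF and CV and the 2 most raised and 2 most lowered called between organs, where a list had them. The rule also covered the 2 of smallest p in each list between GF and CV, but the uncalled ones are mostly left out here. From 23 lists 180 of 182 symbols were found. The genes, the lists and the tests were chosen with earlier results of these data known. Alternatives were DESeq2 1.42.0, limma 3.58.1 with voom, RLE, upper quartile and total count scaling, no filter, a joint fit, leaving out each library, the replicate block and cell score covariates. Transcript length and the scaling of summed levels were added after the data were seen.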

Additional observations from a re-analysis of the deposited data

Results flagged for a closer look

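Glrx2 in CV ovaries had 1 library apart from the others: replicate 2 stood at 20.3 CPM, against 22.3, 22.7 and 22.6 CPM in replicates 1, 3 and 4. Its gap to the nearest value was 0.848 of the group's range, above the 4-sample limit of 0.829. Of 24 sets of libraries tested, 1 stood out, and chance marks about 1 in 20.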

How the results depend on the processing

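The Idh2, Me3, Txnrd2, Prdx3, Gsr and Glrx2 calls between organs kept their direction and call under every scaling, filter, tool and left-out library that was run. Txn2 turned to -0.42 (GF) and -0.39 (CV) with total counts and to -0.12 and -0.089 with the upper quartile. Sod2 turned to -0.11 and -0.17 with total counts, and with the upper quartile was 0.13 between the CV gonads, no longer called. In the ovary 32 called genes became 93 in the joint fit, 95 with DESeq2 and 91 with the replicate block. Without the block, the same partnered libraries gave 33, which is also the fit without GF ovary replicate 5. In the testis 1638 became 122 in the joint fit, which takes each gene's spread over both organs. The number was 996 to 2084 without 1 library, the lowest without GF testis replicate 2. The interaction had 127 in place of 29 with DESeq2 and 13 to 19 without any 1 of the 7 testes (lowest without GF testis replicate 3), or 21 to 37 without 1 ovary.

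Between GF and CV, 0 of the 8 genes stayed called in the ovary and in the interaction throughout. In the testis the number was 0 to 1 without 1 library, the 1 being Glrx2. The partnered testes without the block are the same libraries as those without CV testis replicate 4, so they are not a separate check. The replicate block changed no other call of the 8; in the testis, where the numbers share only a name, it gave 1692 calls.

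Uncalled values near 0 changed sign. Testis Sod2, 0.00, was -0.018 in the joint fit, -0.0028 with RLE and DESeq2, -0.0053 with the upper quartile, -0.0037 unfiltered, -0.0001 with voom and -0.0091 with the Leydig score. Testis Txn2 was 0.0056 with the replicate block and with the Leydig score and 0.0065 without the block. Ovary Me3 was 0.002 with the upper quartile, 0.0595 with the replicate block and 0.0821 without it. The luteal r was -0.084 for Idh2 and 0.015 for Txn2 with a score free of steroid enzymes, and 0.068 for Txn2 within groups.

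Without 1 library, ovary log2 values ran from -0.098 to 0.054 (Gsr), -0.152 to 0.082 (Me3), -0.059 to 0.017 (Prdx3) and -0.006 to 0.078 (Txn2). Testis values ran from -0.034 to 0.0198 (Sod2), -0.0071 to 0.11 (Gsr), -0.051 to 0.045 (Txn2), -0.071 to 0.18 (Txnrd2) and -0.088 to 0.11 (Idh2). Interaction values ran from -0.019 to 0.14 (Gsr), -0.0058 to 0.083 (Sod2), -0.19 to 0.069 (Txnrd2), -0.21 to 0.023 (Me3) and -0.11 to 0.0099 (Txn2). Causes were not tested. Counts of 60 to 89 a library limit Txnrd2 in testes.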
